A study of Homo sapiens with 14 samples.

Results

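MicroRNAs (miRNAs) released in extracellular vesicles (EVs) were compared between epicardial cells stimulated with transforming growth factor β1 (TGF-β1) and cells left untreated. The epicardium is the outer cell layer of the heart, and both groups started from cryopreserved, non-GFP pro-epicardial cells of hES-2, a human embryonic stem cell line. The 7 libraries were chosen by their labels out of 14 in the series: TGFb replicates 1, 2, 3 and 4, and NT (untreated) replicates 1, 3 and 4. In the TGFb group 5 ng/ml TGF-β1 was present for the first 4 days and absent for the last 4, in supplemented StemPro medium lacking the TGF-β receptor inhibitor SB-431542. NT cells stayed for 8 days in that medium with nothing added. From day 4 the medium of both groups had been passed through a 100 kDa filter to deplete its own EVs, and it was collected on days 6 and 8 after 48 h each time. Both collections therefore followed the withdrawal of TGF-β1. The labels call the NT source pro-epicardial and the TGFb source epicardial, so the named stage and the additive cannot be told apart. The other 7 libraries came from cells given SB-431542 (SB) or basic FGF (FGF), and they entered the fit as further groups. Nothing in the labels says that replicates came from separate cultures, so p-values measure the spread between these libraries, which may be technical. No miRNA was taken as a defining marker of epicardial cells.

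TGF-β1 binds a receptor pair, TGFBR2 and TGFBR1, which activates SMAD transcription factors. In the epicardium it is known for driving epithelial cells into a mesenchymal state, from which fibroblasts and mural cells of the coronary vessels arise. miRNAs are short RNAs that guide silencing proteins to messenger RNAs, mostly through the seed, bases 2 to 8 from the 5′ end. SMAD proteins are known to promote the maturation of miR-21 in smooth muscle cells, and the let-7 family is known to target TGFBR1.

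The mature sequences of the miRNAs that the comparison turned on are given 5′ to 3′ from RefSeq (GRCh38.p14), with the seed in capitals. A RefSeq mature sequence was matched for 406 of the 447 miRNAs with counts in the series and for 43 of the 47 that could be tested. The first set shares the let-7 seed, and its members differ at few positions outside it: let-7e-5p and let-7a-5p differ at 1 of 22 bases, as do let-7b-5p and let-7c-5p. Reads of such near-identical members may have been divided between them, depending on the counting.
let-7e-5p: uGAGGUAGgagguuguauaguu
let-7a-5p: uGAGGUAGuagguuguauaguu
let-7b-5p: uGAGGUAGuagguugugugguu
let-7c-5p: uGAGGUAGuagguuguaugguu
let-7i-5p: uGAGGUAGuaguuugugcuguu

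The second set shares the seed of miR-92a-3p. In it miR-92a-3p and miR-92b-3p differ at 3 of 22 bases, and miR-92a-3p and miR-25-3p at 4.
miR-92a-3p: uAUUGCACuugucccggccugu
miR-25-3p: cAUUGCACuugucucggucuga
miR-92b-3p: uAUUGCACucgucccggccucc
miR-363-3p: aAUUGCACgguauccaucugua

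The third set holds miR-125a-5p and miR-125b-5p, which share a seed and were both among the 10 most abundant miRNAs.
miR-125a-5p: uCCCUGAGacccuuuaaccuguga
miR-125b-5p: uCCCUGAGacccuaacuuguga

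The remaining sequences each have a seed of their own among those shown. They belong to miRNAs with 1 of the 4 smallest unadjusted p in a direction, or with shares that did not overlap between the groups. In edgeR that unadjusted p was 0.117 for miR-21-5p and 0.0747 for miR-9-5p.
miR-21-5p: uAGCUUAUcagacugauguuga
miR-4497: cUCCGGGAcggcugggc
miR-9-5p: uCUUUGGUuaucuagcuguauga
miR-1307-3p: aCUCGGCGuggcgucggucgug
miR-423-5p: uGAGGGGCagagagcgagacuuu

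On GRCh38, MIR21 lies at chr17:59841266-59841337 on the plus strand and overlaps an exon of VMP1. MIR25 lies at chr7:100093560-100093643 on the minus strand, in an intron of MCM7. miR-92a-3p has 2 hairpins, MIR92A1 at chr13:91351314-91351391 in an exon of the non-coding MIR17HG and MIR92A2 at chrX:134169538-134169612. MIRLET7E (chr19:51692786-51692864), MIR99B (chr19:51692612-51692681) and MIR125A (chr19:51693254-51693339) stand side by side in an intron of SPACA6, opposite an exon of the non-coding SPACA6P-AS. MIR1307 lies at chr10:103394253-103394401 and overlaps an exon of ATP5MD, and MIR423 lies at chr17:30117079-30117172 and overlaps an exon of NSRP1.

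The libraries were shallow and uneven. NT replicates 1, 3 and 4 held 14862, 9462 and 1010 counts, and TGFb replicates 1 to 4 held 1418, 231, 7478 and 2770. TGFb replicate 2 was the shallowest, where 1 count was 0.433% of the library and a count of 0 allowed a share of up to 1.30%. In NT replicate 1 a count of 0 allowed up to 0.0202%. TGFb totals averaged 2974 ± 3177 (SD, n = 4) and NT totals 8445 ± 6982 (n = 3), a difference whose two-sided exact permutation p was 0.229 (where the smallest possible p is 0.0286). A lower total could come from fewer EVs, less RNA per EV or library preparation, and these cannot be told apart. All shares below are percentages of a library's own miRNA counts, their intervals are 95% Wilson intervals, and both these and the limits for a count of 0 reflect counting error alone.

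The number of miRNAs detected was compared at equal depth, because it grows with the total. Without that correction 274, 227 and 141 miRNAs had a count in NT replicates 1, 3 and 4, and 124, 58, 205 and 184 in TGFb replicates 1 to 4. In 231 counts, the expected number was 48.4, 51.6 and 75.9 in NT and 50.2, 58.0, 49.0 and 67.9 in TGFb. The means of 56.3 ± 8.71 (n = 4) and 58.6 ± 15.0 (n = 3) differed by less than the spread within a group (two-sided exact permutation p = 0.771). NT replicate 4 was the highest of the 7 libraries and TGFb replicate 4 the second. Without NT replicate 4 the difference changed sign, to 6.27 more miRNAs in TGFb (exact permutation p = 0.533).

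**Figure D1:**
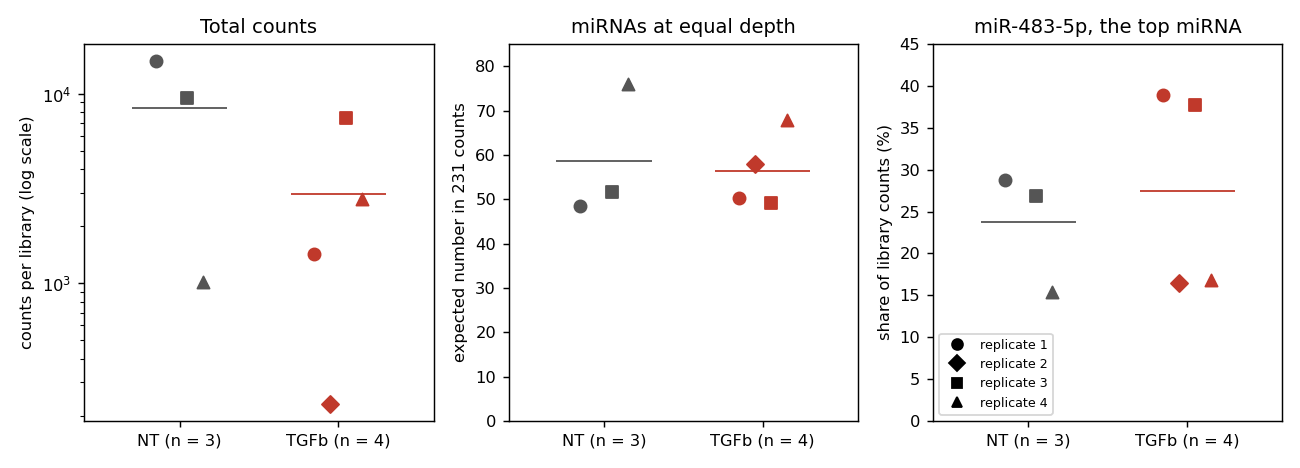
Each point is 1 library, its shape gives the replicate number and each line is the group mean. The left panel plots total counts on a log scale, the middle panel the number of miRNAs expected in 231 counts, and the right panel the share of miR-483-5p in percent. Replicate 4 of each group is highest in the middle panel, and miR-483-5p splits each group, with 15.4% in NT replicate 4 against 28.7% and 26.9%, and 16.5% and 16.9% in TGFb replicates 2 and 4 against 38.9% and 37.7%.

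By shared content, libraries of a group were no closer to each other than to libraries of the other group, a description with no test. The share of counts that 2 libraries had in common, summed over miRNAs, had a median of 65.7% over the 12 pairs of a TGFb and an NT library. It was 60.9% over the 3 pairs within NT and 64.5% over the 6 pairs within TGFb. The 3 pairs of a TGFb and an NT library with the same replicate number shared 68.6% (number 1), 82.9% (number 3) and 74.2% (number 4). NT replicate 4 shared 54.4% with NT replicate 1 and 60.9% with NT replicate 3, less than with TGFb replicate 4. Among the 47 tested miRNAs, NT replicate 4 had the highest share of its group in 27, and TGFb replicate 4 the highest of numbers 1, 3 and 4 in 32. Of numbers 1, 3 and 4, number 4 was highest in both groups for miR-21-5p, for which this matters below. It was lowest in both for miR-483-5p. TGFb replicate 2, which has no NT library of its number, was higher still for miR-21-5p and lower still for miR-483-5p. The part of these number-wise differences in the results below was not tested beyond the values given with and without single libraries.

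Of 403 miRNAs with counts in the 7 libraries, 47 had enough counts for the test, and these held 32613 of 37231 counts. No miRNA passed an adjusted p of 0.05 in edgeR's quasi-likelihood test of TGFb against NT (0 of 47, 0%), and DESeq2 also called 0. At an unadjusted p under 0.05, edgeR had 2 miRNAs (4.26%) and DESeq2 had 2. Fitted log2 fold changes, written here as TGFb over NT, were positive for 26 miRNAs and negative for 21, with a median of 0.09. Scaling by library size alone moved that median to −0.04, and each fold change below is relative to such a shift.

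The spread between replicates set wide limits on what could be seen. The biological coefficient of variation, the spread between libraries beyond counting error, was 0.778 in the fit. The 95% interval of a log2 fold change reached a median of 1.78 to either side of the estimate and was narrowest for miR-92a-3p, at 0.92. It excluded a 4-fold change in either direction for 17 of 47 miRNAs, among them both arms of miR-483, both members of the miR-125 pair, let-7e-5p with its neighbour miR-99b-5p, miR-92a-3p and miR-423-5p. It excluded a 2-fold change in both directions for 0 of 47.

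**Figure D2:**
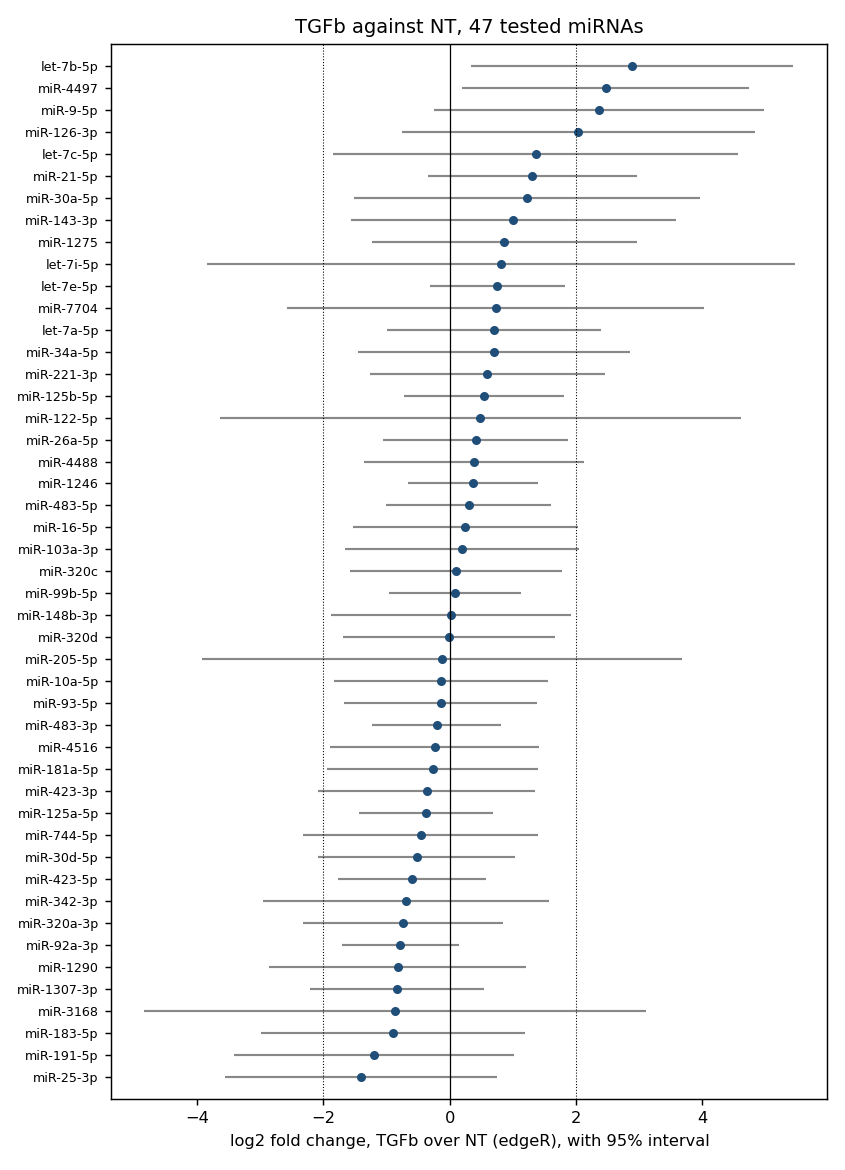
Each point is the edgeR log2 fold change of 1 of the 47 tested miRNAs, TGFb over NT, with its 95% interval, ordered from the highest to the lowest. Dotted lines mark a 4-fold change. Intervals exclude 0 for let-7b-5p and miR-4497, neither of which passed after adjustment, and are widest for miRNAs with few counts such as let-7i-5p, miR-122-5p, miR-205-5p and miR-3168.

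miR-483-5p, which is encoded within the insulin-like growth factor gene IGF2, was the top miRNA of each of the 7 libraries. It took 28.7%, 26.9% and 15.4% of counts in NT replicates 1, 3 and 4, and 38.9%, 16.5%, 37.7% and 16.9% in TGFb replicates 1 to 4. The groups overlapped, since TGFb replicates 2 and 4 lay near NT replicate 4 and below the other NT libraries. The fit gave 0.30 on the log2 scale (SE 0.64), with an adjusted p of 0.935 in edgeR. The other arm of the same hairpin, miR-483-3p, had a mean of 10.9% ± 4.51 in NT (n = 3) and 8.95% ± 2.09 in TGFb (n = 4), with overlap (log2 fold change −0.21, SE 0.50, edgeR adjusted p = 0.935).

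let-7e-5p, miR-99b-5p and miR-125a-5p are made from neighbouring hairpins on chromosome 19, but their shares did not move alike. miR-125a-5p held 17.6%, 10.3% and 5.64% in NT and 5.64%, 9.96%, 9.91% and 10.1% in TGFb, so 3 TGFb libraries lay within the NT range and TGFb replicate 1 lay level with NT replicate 4 at its lower end (log2 fold change −0.37, SE 0.51, edgeR adjusted p = 0.935). let-7e-5p held 1.14%, 4.25% and 2.67% in NT and 2.75%, 4.33%, 4.36% and 5.63% in TGFb. Of the TGFb libraries, replicate 1 lay within the NT range and the other 3 above it (log2 fold change 0.75, SE 0.52, edgeR adjusted p = 0.935). miR-99b-5p ranged from 1.29% to 4.78% in NT and from 2.42% to 4.49% in TGFb, with a log2 fold change of 0.08 (SE 0.51) that turned negative under 10 of 19 alternatives. The mean shares of the remaining abundant miRNAs were 2.95% in TGFb and 2.43% in NT for miR-1246, and 2.42% and 1.52% for miR-125b-5p. Their ranges overlapped.

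**Figure D3:**
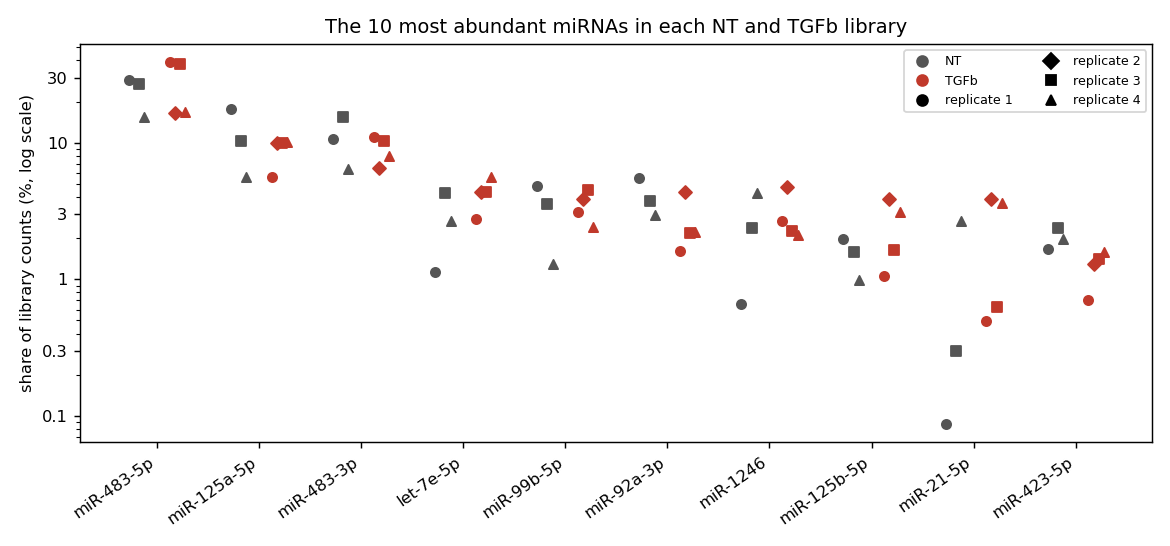
Shares of library counts, in percent on a log scale, of the 10 miRNAs with the highest mean share over the 7 libraries. Grey is NT, red is TGFb, and shapes give the replicate number. The groups overlap for 9 of these miRNAs, miR-423-5p is lower in TGFb with no overlap, and miR-21-5p spans 0.0875% to 3.90%.

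miR-21-5p, raised by TGF-β in other cell types and abundant in fibroblasts, was the member of the TGF-β lists for which 1 library decided the call. It held 0.0875%, 0.296% and 2.67% of counts in NT replicates 1, 3 and 4, from 13, 28 and 27 counts. In TGFb replicates 1 to 4 it held 0.494%, 3.90%, 0.629% and 3.61%, from 7, 9, 47 and 100 counts. TGFb replicates 1 and 3 lay between the NT libraries, since NT replicate 4 was about as high as TGFb replicates 2 and 4, with Wilson intervals of 1.84% to 3.86%, 2.06% to 7.24% and 2.98% to 4.37%. The log2 fold change was 1.31 (SE 0.81, 95% interval −0.35 to 2.97), and edgeR's adjusted p was 0.935. Without NT replicate 4 it was 3.26 (SE 0.80, edgeR adjusted p = 0.00816), the 1 call among 53 tested miRNAs (1.89%), where the median of all tested miRNAs had moved to 0.51. When TGFb replicate 2 was left out as well, the call was lost (log2 fold change 2.50, edgeR adjusted p = 0.227). Within replicate numbers, miR-21-5p was higher in TGFb in each of 3, by 2.54, 1.08 and 0.41 on the log2 scale for numbers 1, 3 and 4 (pseudocount 0.5 counts). Number 2 has no NT library.

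**Figure D4:**
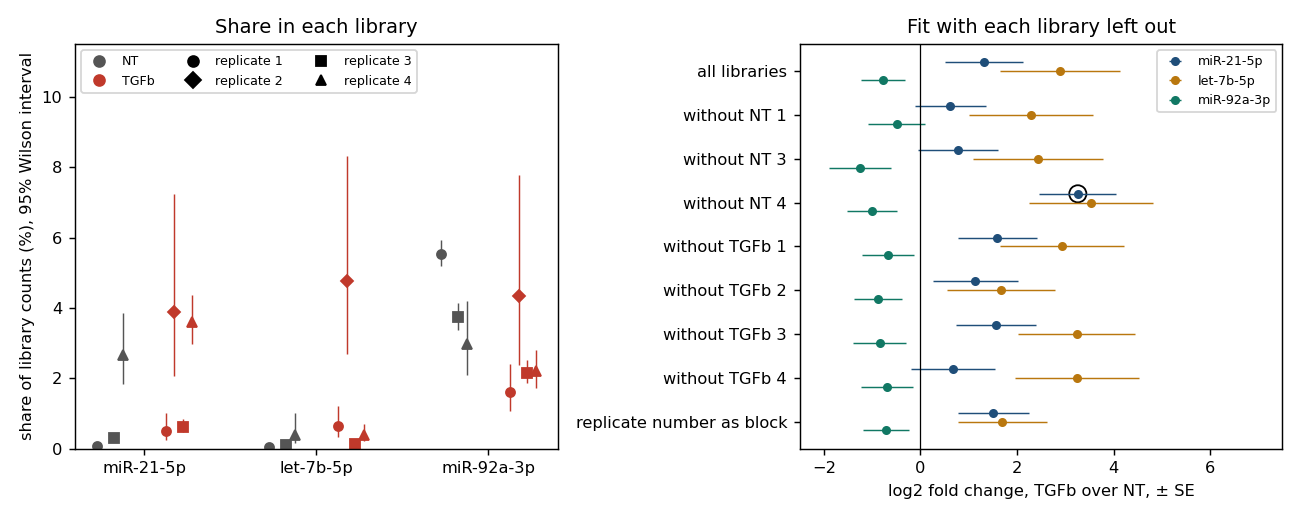
Left, shares of miR-21-5p, let-7b-5p and miR-92a-3p in each library in percent, with 95% Wilson intervals. Right, edgeR log2 fold changes (TGFb over NT) with standard errors when each library is left out in turn and when replicate number is a block. The open circle marks the 1 value with an adjusted p under 0.05, miR-21-5p without NT replicate 4 (3.26), and the leave-one-out values of miR-21-5p start at 0.62.

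Of the other miRNAs known from other cell types to rise with TGF-β, miR-143-3p, a miRNA of smooth muscle and fibroblasts, had 0, 6 and 9 counts in NT and 1, 3, 13 and 17 in TGFb. Its share ran from 0% to 0.891% in NT and from 0.0705% to 1.30% in TGFb (log2 fold change 1.00, SE 1.25, edgeR adjusted p = 0.935). Single libraries moved that value: it was 3.6 without NT replicate 4 (edgeR adjusted p = 0.0879) and 0.19 without NT replicate 1. miR-181a-5p had −0.27 on the log2 scale (SE 0.81). In all, 3 of the 11 miRNAs of this list could be tested, 0 passed, and their median log2 fold change, that of miR-143-3p, was 1.00 against 0.09 over all tested miRNAs. The summed share of the list was 1.35% to 6.53% in NT and 1.48% to 6.57% in TGFb. miR-199a-5p, miR-216a-5p and miR-217-5p had 0 counts in the 7 libraries.

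Of 10 epithelial and anti-fibrotic miRNAs known from other cell types to fall with TGF-β, 1 could be tested. That miRNA, miR-205-5p, held 0.0202%, 0.0211% and 1.09% in NT and 0.0705%, 0.866%, 0.0134% and 0.397% in TGFb, with a log2 fold change of −0.12 (SE 1.85). Its direction turned without NT replicate 4, to 3.12 (edgeR adjusted p = 0.427). The summed share of the list ran from 0.0471% to 2.67% in NT and from 0.160% to 1.73% in TGFb. miR-200c-3p, a repressor of the mesenchymal program, held 0.650% in TGFb replicate 4 (18 counts) and 0.396% in NT replicate 4 (4 counts). Their Wilson intervals overlapped (0.411% to 1.02% and 0.154% to 1.01%), and the other libraries had 0 to 3 counts. By mean share miR-200b-3p, miR-141-3p, miR-29a-3p and miR-29c-3p, also untested, were lower in TGFb. The untested miR-200a-3p, miR-200c-3p, miR-429, miR-203a-3p and miR-29b-3p were higher. Apart from miR-200c-3p and miR-29a-3p, these untested members had 0 to 4 counts per library, too few to give a direction. miR-29b-3p had only 1 count, in TGFb replicate 4, and miR-29c-3p only 1, in NT replicate 3.

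let-7 family members, which are known to target the receptor TGFBR1, had positive fold changes in each of the 5 that could be tested, of 9 in the list, and 0 passed. Their median log2 fold change, that of the sparsely counted let-7i-5p, was 0.81, against 0.09 over all tested miRNAs. Of the untested members, let-7f-5p had a higher mean share in TGFb, with overlap. The rest had too few counts to give a direction. let-7g-5p had 1 count in NT replicate 3 and 1 in TGFb replicate 4. let-7d-5p had 2 counts, in NT replicate 1 alone, and miR-98-5p had 2, in NT replicate 3 alone. let-7b-5p had the smallest p of the 47, with a log2 fold change of 2.88 (SE 1.24, unadjusted p = 0.0283, edgeR adjusted p = 0.799). It held 0.0538%, 0.0951% and 0.396% in NT and 0.635%, 4.76%, 0.147% and 0.397% in TGFb. Its counts were nearly level across libraries of unequal depth, at 8, 9 and 4 in NT and 9, 11, 11 and 11 in TGFb. TGFb replicate 3 lay within the NT range. The log2 fold change was 1.67 without TGFb replicate 2 (edgeR adjusted p = 0.933) and 3.54 without NT replicate 4 (edgeR adjusted p = 0.0879). let-7a-5p held 0.303%, 0.476% and 0.891% in NT and 0.564%, 1.30%, 0.588% and 0.975% in TGFb (log2 fold change 0.70, SE 0.83). let-7c-5p had 1.36 (SE 1.56) from 1 to 23 counts, and let-7i-5p 0.81 (SE 2.27) from 0 to 5 counts, the latter negative without TGFb replicate 2.

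When counts were summed over miRNAs with the same seed, the let-7 family held 1.68%, 5.26% and 4.16% in NT and 4.44%, 12.1%, 5.62% and 7.44% in TGFb. TGFb replicate 1 lay between the NT libraries and the other 3 lay above them. The mean was 7.40% ± 3.38 (n = 4) against 3.70% ± 1.84 (n = 3), and the fit gave a log2 fold change of 0.95 (SE 0.56, edgeR adjusted p = 0.843). A miRNA with no matched RefSeq sequence was kept as a family of its own. Among these were miR-320a-3p, not summed with miR-320c, and miR-30d-5p, not summed with miR-30a-5p. Of 42 families so formed and tested, 0 passed (0%), and DESeq2 also called 0. At an unadjusted p under 0.05 there were 2 in edgeR (4.76%) and 3 in DESeq2. Without NT replicate 4, 1 of 45 families passed (2.22%), that of miR-21-5p (log2 fold change 3.07, edgeR adjusted p = 0.0101).

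One of the 2 families under 0.05 was that of miR-92a-3p, a miRNA of the MIR17HG cluster, which is known for promoting proliferation. The family of miR-92a-3p, miR-25-3p, miR-92b-3p and miR-363-3p held 6.12%, 4.31% and 4.16% in NT and 1.69%, 4.33%, 2.47% and 2.71% in TGFb. TGFb replicate 2 lay among the NT libraries, with 10 counts, and the other 3 lay below them. The log2 fold change was −0.98 (SE 0.48, unadjusted p = 0.0489, edgeR adjusted p = 0.812). miR-92a-3p itself held 5.54%, 3.74% and 2.97% in NT and 1.62%, 4.33%, 2.17% and 2.20% in TGFb (log2 fold change −0.78, SE 0.45, edgeR adjusted p = 0.935). Under each of the 20 alternatives tried the direction was the same, with log2 fold changes from −1.70 to −0.49.

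miR-25-3p held 0.505%, 0.507% and 0.990% in NT against 0%, 0%, 0.241% and 0.433% in TGFb. A count of 0 allowed up to 0.212% in TGFb replicate 1, below the NT libraries, but up to 1.30% in TGFb replicate 2, above them. Its log2 fold change was −1.41 (SE 1.05, edgeR adjusted p = 0.935). It was 1 of 4 miRNAs lower in the TGFb libraries with no overlap between the groups (8.51% of 47), and 0 were higher with no overlap (0%).

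The other 3 without overlap were miR-1307-3p, miR-423-5p and miR-320a-3p. miR-1307-3p held 1.49%, 1.18% and 1.68% in NT and 0.705%, 0.866%, 0.709% and 0.794% in TGFb, the tightest TGFb group of these. miR-423-5p held 1.66%, 2.38% and 1.98% in NT and 0.705%, 1.30%, 1.40% and 1.59% in TGFb. For miR-320a-3p the shares were 0.821%, 0.592% and 0.792% in NT and 0.423%, 0.433%, 0.267% and 0.542% in TGFb. TGFb replicate 2 contributed 2, 3 and 1 counts to these, with Wilson intervals of 0.238% to 3.10%, 0.443% to 3.75% and 0.0765% to 2.41% that reach into or past the NT values. The log2 fold changes were −0.84 (SE 0.67), −0.60 (SE 0.57) and −0.74 (SE 0.77), each with an edgeR adjusted p of 0.935. They stayed negative under each alternative tried. The lower share of miR-320a-3p was not seen in its tested namesakes, whose groups overlapped. On the log2 scale the fit put miR-320c at 0.09 (SE 0.82) and miR-320d at −0.0083 (SE 0.82). Counts of miR-320c summed with miR-320d, miR-320b and miR-4429 came to 0.02 (SE 0.64). Whether reads were divided between miR-320a-3p and these miRNAs was not tested.

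Within replicate numbers 1, 3 and 4, 8 of the 47 tested miRNAs were lower in TGFb in each (17%) and 6 were higher in each (12.8%). The 8 were the 4 lower with no overlap, then miR-92a-3p, miR-183-5p, miR-30d-5p and miR-423-3p, so both arms of miR-423 were among them. The 4 without overlap had to be included, since all their TGFb shares lay below all their NT shares. miR-92a-3p was lower by −1.74, −0.79 and −0.44 on the log2 scale, and miR-1307-3p by −1.02, −0.73 and −1.09. The 6 higher were miR-21-5p, miR-483-5p, miR-26a-5p and miR-30a-5p with 2 let-7 members, let-7a-5p and let-7e-5p. miR-483-5p was higher by 0.44, 0.49 and 0.12, and let-7e-5p by 1.29, 0.04 and 1.05. These differences rest on 1 library each side, with no replicate check within a number. With only 3 numbers compared, some miRNAs share a sign in all 3 without any group effect. How many would do so was not tested.

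**Figure D5:**
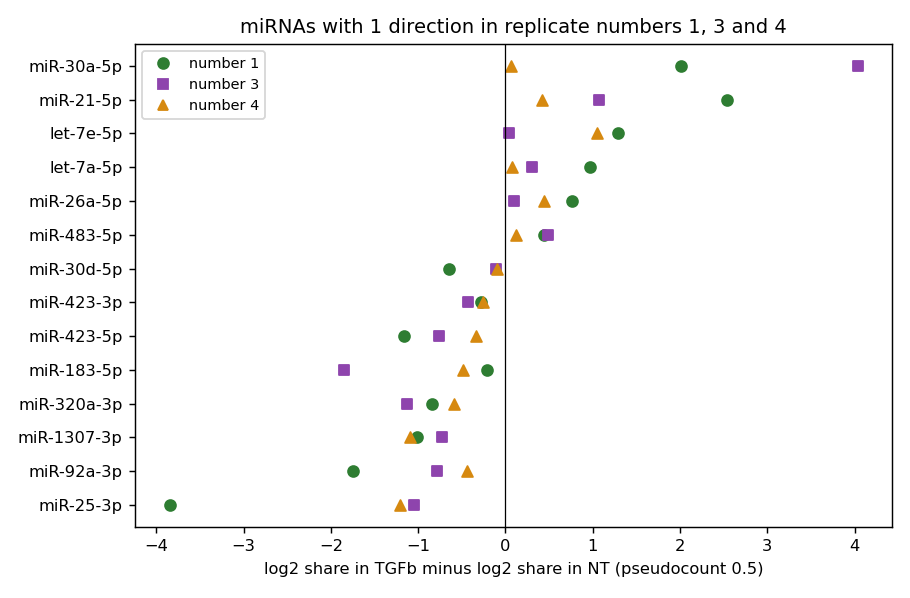
Log2 difference in share, TGFb minus NT, within replicate numbers 1, 3 and 4, for the 14 tested miRNAs with the same sign in all 3. A pseudocount of 0.5 counts was added, and the axis is in log2 units. miR-1307-3p and miR-423-3p are the most even across numbers, and miR-25-3p (−3.85 in number 1) and miR-30a-5p (4.04 in number 3) each include a library with 0 counts.

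For miR-4497 and miR-9-5p, small p-values went with high shares in 1 or 2 TGFb libraries. miR-4497 held 0.161%, 0.201% and 0.594% in NT and 4.23%, 0.866%, 0.0936% and 0.325% in TGFb. TGFb replicate 1 stood above the other libraries, from 60 counts, and TGFb replicate 3 stood below the NT libraries. The log2 fold change was 2.47 (SE 1.10, unadjusted p = 0.0340, edgeR adjusted p = 0.799), and without TGFb replicate 1 it was 0.10. miR-9-5p, a miRNA of neural cells, held 0.0404%, 0.0528% and 0.495% in NT and 0.776%, 3.03%, 0.0267% and 0.181% in TGFb, from 2 to 11 counts per library. Its log2 fold change was 2.36 (SE 1.27, unadjusted p = 0.0747, edgeR adjusted p = 0.935). That value was 1.38 without TGFb replicate 2 (edgeR adjusted p = 0.933) and 3.59 without NT replicate 4 (edgeR adjusted p = 0.0879). On the lower side, miR-191-5p held 0.915%, 0.539% and 0.198% in NT and 0%, 0.433%, 0.308% and 0.325% in TGFb, with overlap (log2 fold change −1.20, SE 1.08, edgeR adjusted p = 0.935).

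Other miRNA families are known to act on further components of the pathway. Of 6 miR-17 family members, known to target TGFBR2, 1 could be tested: miR-93-5p ranged from 0.727% to 0.793% in NT and from 0.423% to 1.30% in TGFb (log2 fold change −0.15, SE 0.75). Of 5 miR-30 family members, known to target the fibrosis factor CTGF (CCN2), 2 could be tested, and their signs differed. For miR-30a-5p the log2 fold change was 1.22 (SE 1.33). It rested on single libraries, with 3.65 without NT replicate 4 (edgeR adjusted p = 0.0879), 0.26 without NT replicate 3 and 0.025 without TGFb replicate 4. miR-30d-5p had −0.52 (SE 0.76) with shares of 1.82%, 0.793% and 0.396% in NT and 1.13%, 0.433%, 0.735% and 0.397% in TGFb. The summed share of the miR-30 list was 0.888% to 1.90% in NT and 0.866% to 1.48% in TGFb.

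Of 13 miRNAs abundant in fibroblasts and mural cells, 4 could be tested and 0 passed. miR-21-5p, miR-143-3p, miR-125b-5p and miR-221-3p each had a positive fold change, with a median of 0.80 on the log2 scale against 0.09 over all tested miRNAs. miR-125b-5p turned negative in libraries of at least 500 counts, and miR-221-3p without NT replicate 3. The untested members, each with few counts, went both ways. By mean share miR-100-5p, miR-22-3p, miR-222-3p and miR-199b-5p were lower in TGFb, and miR-10b-5p, miR-145-5p, miR-199a-3p and miR-214-3p were higher. The summed share of the list was 2.62%, 2.39% and 5.45% in NT and 2.26%, 10.4%, 2.74% and 9.03% in TGFb. TGFb replicates 2 and 4 were high, and TGFb replicates 1 and 3 lay beside NT replicates 1 and 3. miR-214-3p, miR-145-5p, miR-199a-3p and miR-199b-5p, which mark fibroblasts and mural cells, had 0 to 6 counts per library.

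Markers of serum, pluripotent and muscle cells were scarce, with observed summed shares under 1% in each library. In TGFb replicate 2 each of these lists had 0 counts, which allows up to 1.30%. Of 7 serum and blood cell miRNAs, miR-451a, miR-144-3p, miR-223-3p and miR-150-5p had 0 counts, and the summed share was 0% to 0.495% in NT and 0% to 0.144% in TGFb. The tested member, miR-122-5p of liver and serum, had 0 to 4 counts per library (log2 fold change 0.49, SE 2.01). The 8 pluripotent stem cell miRNAs summed to 0 to 2 counts per library, and miR-302b-3p, miR-302c-3p, miR-302d-3p and miR-367-3p had 0. The 7 heart and skeletal muscle miRNAs summed to 3, 6 and 8 counts in NT and 3, 0, 1 and 2 in TGFb, with miR-208a-3p, miR-208b-3p and miR-499a-5p at 0. Of the 2 endothelial miRNAs, miR-126-3p ran from 0.0269% to 0.0990% in NT and from 0.0535% to 0.866% in TGFb (log2 fold change 2.04, SE 1.36, edgeR adjusted p = 0.935), from 1 to 9 counts per library. Of 3 neural miRNAs, miR-9-3p and miR-124-3p had 0 counts, while miR-9-5p, described above, reached 0.776% in TGFb replicate 1 and 3.03% in TGFb replicate 2.

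Sequences that can come from other RNAs differed between libraries more than between groups. miR-1246 and miR-1290, which can derive from a spliceosomal RNA, together held 0.727%, 2.61% and 5.35% in NT and 2.75%, 4.76%, 2.49% and 2.38% in TGFb, with 0 of 2 called. miRNAs with a miRBase number of 3000 or more, which include many of uncertain origin, summed to 4.43%, 1.83% and 10.5% in NT and 13.5%, 6.93%, 1.71% and 4.58% in TGFb. Of the 5 that could be tested, 0 passed. The highest value belonged to TGFb replicate 1, where miR-4497 was also highest, and their part in that result was not tested.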

How the data were processed

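EV miRNAs were sequenced from 14 samples of conditioned medium. The EVs had been collected by polyethylene glycol precipitation (miRCURY kit), their RNA isolated with miRNeasy Micro columns and sequenced from QIAseq miRNA libraries, per the labels' protocols. The authors' deposited raw table holds whole-number counts of 2632 miRNAs with no normalization. A second deposited table holds values adjusted by the authors, treated as a score, which entered 1 alternative. Another 18 columns, the authors' CPM per library and per group, were not used. The submitters' processing notes name GRCh38. The aligner, the annotation and the use of molecular identifiers are not given in the sources used here, so a count may be of a read or of a molecule.

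Groups and replicate numbers came from the labels. Raw counts were tested with edgeR 4.0.16 in R 4.3.3 (TMM factors, library sizes summed over tested miRNAs, filterByExpr with a minimum count of 10, robust quasi-likelihood fit). All 14 libraries entered 1 fit with group means, with Benjamini-Hochberg adjustment over all tested miRNAs and a threshold of 0.05. Seed families were tested likewise on summed counts, and a miRNA with no matched RefSeq sequence formed a family of its own. The 9 pairs of replicates within NT and TGFb differed beyond sampling noise in a resampled chi-square test (p = 0.0005, the smallest that 2000 resamples can give), so none were merged. Totals and detected miRNAs were compared by exact permutation over 35 assignments. Scripts were tested on simulated data.

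The members and 11 miRNA lists were chosen with earlier results of these data known. Named were the 10 miRNAs with the highest mean share, the 4 smallest p-values per direction, tested miRNAs whose groups did not overlap, tested list members, and for families the 3 smallest p-values per direction. Others are named as untested members of lists, members with 1 direction within replicate numbers, or were chosen after their values were seen.

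Alternatives were other scalings, DESeq2 1.42.0, other filters, the adjusted table in limma 3.58.1 (log2 values), a replicate block, fits of the 2 groups or of libraries of at least 500 counts, and the omission of each library. Chosen after seeing the data were library totals over all miRNAs, the fit without NT 4 and TGFb 2, and the fit without NT 4 with the block.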

Additional observations from a re-analysis of the deposited data

Results flagged for a closer look

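In 3 of 38 sets of 4 TGFb values examined, 1 library lay far from the other 3. The measure was the distance from that library to its nearest neighbour, as a part of the whole range. About 1 in 20, or 1.9 sets, would be flagged among independent sets of normal values of equal precision. These sets shared 4 libraries of unequal depth, so that rate need not hold here. For miR-125a-5p it was 0.955, since TGFb replicate 1 held 5.64% and the others 9.91% to 10.1%. For let-7b-5p it was 0.894, since TGFb replicate 2 held 4.76%, from 11 counts, and the others 0.147% to 0.635%. For let-7i-5p it was 0.958, since TGFb replicate 2 held 0.866%, from 2 counts, and the others 0% to 0.0361%. TGFb replicate 2 was the shallowest of the 7 libraries.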

How the results depend on the processing

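Replicate numbers were not taken to pair the libraries. Deviations from the group means correlated at 0.0458, 0.615 and 0.234 between NT and TGFb libraries of numbers 1, 3 and 4. NT 3 and NT 4 each correlated best with the TGFb library of the same number, while NT 1 correlated best with TGFb 3 (0.219). The biological coefficient of variation was 0.778 in the main fit and 0.573 with replicate number as a block. With the replicate block, 0 of 47 miRNAs were called, as were 0 of 42 families. The 2 miRNAs then under an unadjusted p of 0.05 were not those of the main fit. They were miR-483-5p (log2 fold change 0.59, edgeR unadjusted p = 0.0330) and let-7e-5p (0.97, edgeR unadjusted p = 0.0497). In this fit edgeR's unadjusted p was 0.0815 for let-7b-5p and 0.152 for miR-4497. The block turned the direction of miR-181a-5p (0.017) and let-7i-5p (−0.20). Without NT 4, with the replicate block, 1 miRNA was called, miR-21-5p (2.68, edgeR adjusted p = 0.00626), and miR-181a-5p (0.064), miR-205-5p (0.27), let-7i-5p (−0.45), miR-1290 (0.55) and miR-99b-5p (−0.14) changed direction.

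Leaving out each library in turn gave 0 to 1 calls by miRNA and by family, the 1 call being miR-21-5p and its family without NT 4. In that fit 7 of 53 miRNAs (13.2%) had an unadjusted p under 0.05 in edgeR. The difference in detected miRNAs ran from −7.48 to 6.27 and was positive without NT 4 (6.27) and without TGFb 3 (0.0531). The log2 fold changes of 11 miRNAs and 1 family changed direction in 1 or more of these fits, where none passed. These were miR-125a-5p (−0.91 to 0.10), miR-483-3p (−0.48 to 0.0087), miR-99b-5p (−0.26 to 0.50), miR-1246 (−0.062 to 0.87), miR-181a-5p (−0.58 to 0.21), miR-205-5p (−0.98 to 3.12), let-7i-5p (−0.70 to 1.53), miR-30d-5p (−1.07 to 0.31), miR-221-3p (−0.0037 to 0.91), miR-122-5p (−0.55 to 4.45), miR-1290 (−1.32 to 0.43) and the family of miR-4497 (−0.027 to 2.94).

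Of the other alternatives, each gave 0 calls by miRNA and, where run, by family. Leaving out NT 4 and TGFb 2 together turned miR-483-5p (−0.14), miR-99b-5p (−0.71), miR-125b-5p (−0.46), miR-205-5p (2.07), let-7i-5p (−1.40), miR-221-3p (−0.024) and miR-1290 (0.11). The 500-count minimum turned miR-99b-5p (−0.25) and miR-125b-5p (−0.10). miR-99b-5p also turned without both miR-483 arms (−0.28), with no filter (−0.27), with 2 groups in the fit (−0.030) and with totals over all miRNAs (−0.17). Requiring 10 counts in each TGFb and NT library turned miR-125a-5p (0.0055) and miR-483-3p (0.11), the adjusted table turned miR-125a-5p (0.24) and DESeq2 turned miR-122-5p (−0.44). The cause of these turns was not tested. In TGFb 2, 31 of the 47 tested miRNAs had fewer than 3 counts, which limits the precision of their shares there.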

Other observations

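Some tested miRNAs outside the rule for naming were chosen after their values were seen, because their shares differed widely between libraries of a group. miR-7704 held 0.202%, 0.201% and 1.78% in NT and 1.76%, 0%, 0% and 1.44% in TGFb. TGFb replicate 3 had 0 of 7478 counts, which allows up to 0.0401%, while TGFb replicates 1 and 4 lay near NT replicate 4 and above the other NT libraries. miR-3168 held 0%, 0.0317% and 1.49% in NT and 0.564%, 0%, 0.0535% and 0.0361% in TGFb, so NT replicate 4 and TGFb replicate 1 stood above the others. miR-342-3p had 113, 36 and 0 counts in NT and 2, 0, 28 and 8 in TGFb. These miRNAs had edgeR adjusted p-values of 0.935 between the groups.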
